A study of Mus musculus with 12 samples.

Results

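The CCT chaperonin, also called TRiC, is the folding machine of the cytosol, and the genes of its 8 subunits were followed here across granulocyte-monocyte precursors (GMPs) of 4 mouse genotypes. The 8 genes are Tcp1 (the alpha subunit), Cct2 (beta), Cct3 (gamma), Cct4 (delta), Cct5 (epsilon), Cct6a (zeta), Cct7 (eta) and Cct8 (theta). They were 8 of 14201 genes with a value, and 99 of the 98975 probe sets with 1 gene symbol. A probe set is a short group of array probes, here mostly within 1 gene, and each subunit was read by between 9 (Cct3) and 17 (Cct2) of them. Of the 99, 93 were above the 5th percentile of the signals on all 12 arrays and 6 were under it on at least 1 array. The members were chosen because a single Cct6a probe set was low in 1 genotype, so every value of that genotype is given as a description without a test.

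Each ring of CCT is built from the 8 different subunits, and pairs of rings enclose a chamber in which ATP-driven closure lets a client protein fold. Actin and tubulin are the best known clients and cannot reach their native state without it. Prefoldin hands unfolded actin and tubulin to CCT, and phosducin-like proteins act as its partners. Growing and dividing cells, such as myeloid precursors, are known to need much of it.

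The KO mice lacked Gfi1, which encodes a repressor with zinc fingers that steers precursors to granulocytes. The SNP mice carried a knock-in of the variant of human GFI1 that the labels call SNP36N, and the wtKI mice a knock-in of the common human form. The WT mice had mouse Gfi1. All were C57BL/6, their ages are not stated in the sources used, and GMPs were sorted from bone marrow for 3 Affymetrix arrays a genotype, to find genes that the variant regulates and that might matter in acute myeloid leukaemia. The labels name no separate mice for the arrays of a group, so a p-value here speaks only of the spread between arrays, part of which may be technical.

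Across all probe sets the 12 arrays had medians of 7.32 to 7.58 on the log2 scale. Arrays KO 1 and SNP 1 stood apart, with median correlations to the other arrays of 0.70 and 0.633, against 0.836 to 0.886 for the other 10. Comparisons of KO or SNP are therefore also given on the other 10 arrays. Of the 9 GMP markers, 8 were measured, and their mean was 9.06 to 9.43 in KO, 8.39 to 9.30 in SNP, 9.21 to 9.30 in wtKI and 9.37 to 9.52 in WT, with SNP 1 the lowest. The gene value of Gfi1 was 6.33, 6.78 and 6.57 in KO and 5.75, 5.71 and 6.26 in WT, a difference of 0.66 ± 0.21 (limma adjusted p = 0.802). It was not lower in KO, and the place of its probes relative to the deleted part is not known here, so the arrays do not check that label.

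The promoters are shown because the 8 subunits are needed in equal numbers for 1 complex, and because their values were low on the same arrays. The RefSeq promoter table (GRCm38.p6) held 7 of the 8 genes, and the 150 bases just upstream of the start were searched on both strands for a CCAAT box (CCAAT), a heat shock element (GAANNTTC), an ETS motif (CCGGAAGT) and the core letters of the GFI1 motif (AATC). The sequences below run 5′ to 3′ along the gene, with CCAAT boxes (read as CCAAT or ATTGG) and the ETS motif in capitals.
Tcp1, chr17:12916179-12916328, plus strand: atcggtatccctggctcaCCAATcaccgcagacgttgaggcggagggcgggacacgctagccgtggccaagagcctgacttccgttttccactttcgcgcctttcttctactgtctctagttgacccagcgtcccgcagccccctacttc
Cct3, chr3:88296985-88297134, plus strand: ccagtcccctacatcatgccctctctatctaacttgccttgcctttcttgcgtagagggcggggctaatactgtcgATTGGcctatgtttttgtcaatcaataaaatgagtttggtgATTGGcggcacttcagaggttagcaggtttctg
Cct6a, chr5:129787206-129787355, plus strand: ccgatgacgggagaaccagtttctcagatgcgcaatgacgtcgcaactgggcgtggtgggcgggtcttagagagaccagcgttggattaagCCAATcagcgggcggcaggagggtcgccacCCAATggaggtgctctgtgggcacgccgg
Cct7, chr6:85451355-85451504, plus strand: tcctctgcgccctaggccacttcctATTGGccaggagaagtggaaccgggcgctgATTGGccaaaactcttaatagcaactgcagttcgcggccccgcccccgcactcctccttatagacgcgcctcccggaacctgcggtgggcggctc
Cct8, chr16:87495870-87496019, minus strand: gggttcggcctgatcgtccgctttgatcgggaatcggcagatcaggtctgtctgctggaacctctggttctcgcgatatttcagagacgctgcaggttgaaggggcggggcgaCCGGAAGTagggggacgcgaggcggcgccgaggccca
CCAAT was found in 4 of the 7 windows, against 24.5% of 32851 promoters in the table. It lay 132 bases upstream of the start in Tcp1, 74 and 33 in Cct3, 59 and 29 in Cct6a, and 125 and 95 in Cct7. The ETS motif was in 1 of the 7, Cct8, 37 bases upstream, against 2.4% of all promoters, and the heat shock element in 0 of 7 against 3.95%. AATC is so short that 51.1% of all promoters hold it, as did 7 of the 7. It overlaps a CCAAT box wherever a C follows that box, as in both boxes of Cct3 and in the box of Tcp1. A match describes the letters in this window and does not show that a factor binds.

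The subunit genes kept close to 1 level per gene across the WT arrays and spread more in KO and SNP. All values here are log2 signals, compared only within a gene. Tcp1, the subunit first found as a t-complex gene, had 8.85, 9.79 and 9.85 in KO, 7.84, 9.43 and 9.31 in SNP, 9.50, 9.61 and 9.37 in wtKI and 9.66, 9.86 and 9.61 in WT. Cct3 had 7.82, 8.29 and 8.32 in KO, 6.36, 8.05 and 7.63 in SNP, 8.14, 8.18 and 8.16 in wtKI and 8.40, 8.41 and 8.18 in WT. In both genes the lowest array was SNP 1, and every SNP array was below every WT array. Cct5, whose human gene is mutated in a sensory neuropathy, had 10.50, 10.70 and 10.72 in KO, 9.59, 10.56 and 10.22 in SNP, 10.54, 10.58 and 10.41 in wtKI and 10.71, 10.64 and 10.68 in WT. Cct7 had 8.23, 9.11 and 9.21 in KO, 7.55, 9.18 and 8.81 in SNP, 9.08, 9.09 and 9.18 in wtKI and 9.32, 9.19 and 9.26 in WT. These 2 genes were also lower on every SNP array than on any WT array. Cct6a, the widely expressed form of the zeta subunit, had 8.96, 9.62 and 9.52 in KO, 8.27, 9.22 and 8.96 in SNP, 9.04, 9.14 and 8.68 in wtKI and 9.37, 9.21 and 9.36 in WT. Its wtKI arrays were below its WT arrays, and wtKI 3 was the lowest of them.

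In the other 3 genes, as in Cct6a, the SNP and WT arrays overlapped. Cct2, whose human gene is mutated in a form of congenital blindness, averaged 10.56 ± 0.39 in KO, 10.19 ± 0.36 in SNP, 10.57 ± 0.09 in wtKI and 10.61 ± 0.11 in WT (SD, n = 3). Cct4 averaged 10.01 ± 0.33 in KO, 9.80 ± 0.66 in SNP, 10.13 ± 0.07 in wtKI and 10.21 ± 0.03 in WT. Cct8 averaged 10.003 ± 0.24 in KO, 9.80 ± 0.49 in SNP, 10.10 ± 0.01 in wtKI and 10.14 ± 0.06 in WT. In each of them the SD was larger in KO and in SNP than in wtKI or WT.

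**Figure D1:**
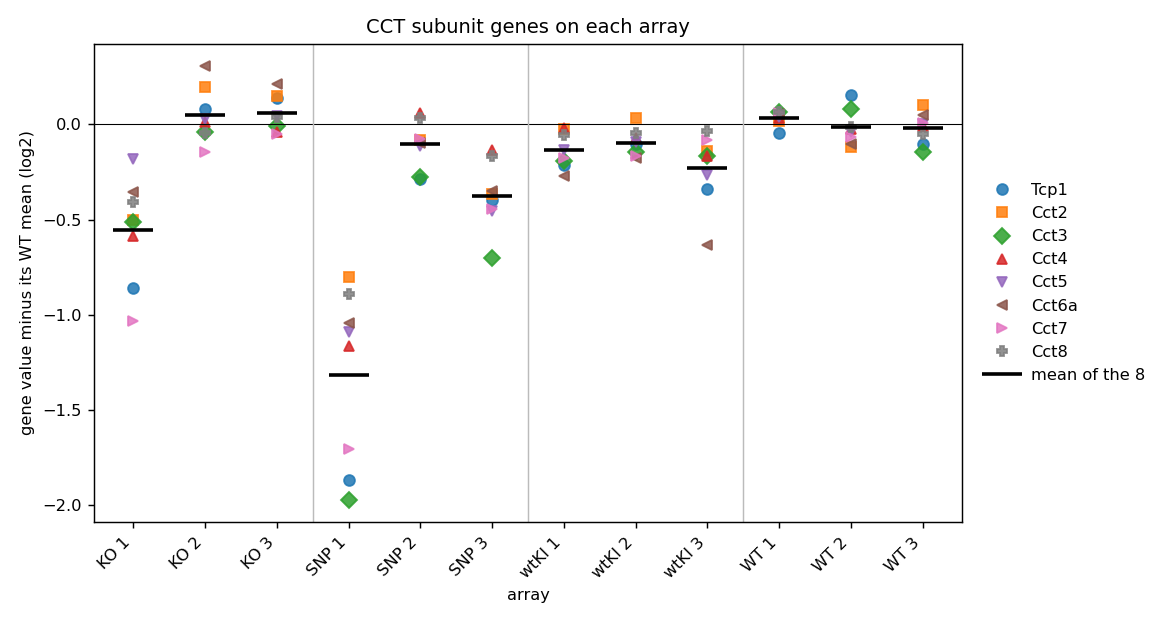
Each point is the gene value of 1 CCT subunit on 1 array minus that gene's WT mean (log2, vertical axis), with the arrays along the horizontal axis and a bar at the mean of the 8. All 8 points lie below the WT arrays on KO 1, SNP 1 and SNP 3, and the bar of SNP 1 is lowest, at -1.32.

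The 8 subunits shared the arrays on which they were low. Relative to WT, their mean was -0.55 on KO 1, 0.05 on KO 2 and 0.06 on KO 3, and -1.32, -0.11 and -0.38 on SNP 1, SNP 2 and SNP 3. On the wtKI arrays it was -0.14, -0.10 and -0.23, and on the WT arrays 0.04, -0.02 and -0.02. On SNP 1 the subunits ranged between -1.97 (Cct3) and -0.80 (Cct2), and on KO 1 between -1.03 (Cct7) and -0.18 (Cct5). All 8 were below every WT array on SNP 1, 4 on SNP 2 and 8 on SNP 3, where 39.8%, 26.8% and 34.7% of all genes were. The counts were 8, 1 and 1 on KO 1, KO 2 and KO 3, where 37.1%, 26.3% and 27.4% of all genes were.

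In KO against WT, which asks what changes when Gfi1 is lost, none of the 8 subunits passed the test. Limma called 0 of 14201 genes in all, which is 0% (adjusted p under 0.05, Benjamini-Hochberg over all genes), with 670 genes, or 4.72%, at an unadjusted p under 0.05, none of them a subunit. Differences lay between -0.41 ± 0.37 (SE) for Cct7 and 0.05 ± 0.26 for Cct6a, with adjusted p = 0.9996 for each. Of the 8, 7 were lower in KO, with a median of -0.16, against a median of -0.02 over all genes, of which 53.1% were lower. No subunit had every KO array below every WT array, as 6.09% of all genes had. The lower values were those of KO 1. On the 10 arrays without KO 1 and SNP 1, 4 of 8 were lower, the median was 0.02, and differences ran from -0.10 (Cct7) to 0.26 (Cct6a).

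In SNP against WT all 8 subunits had lower means in SNP, and none passed the test. Cct3 differed most, by -0.98 ± 0.35 (limma adjusted p = 0.27), followed by Tcp1 at -0.85 ± 0.39 (adjusted p = 0.315) and Cct7 at -0.74 ± 0.37 (adjusted p = 0.338). Cct5 was at -0.55 ± 0.22 (adjusted p = 0.29), Cct6a at -0.50 ± 0.26, Cct2 at -0.42 ± 0.23, Cct4 at -0.41 ± 0.29 and Cct8 at -0.34 ± 0.23 (adjusted p between 0.35 and 0.451). The median of the 8 was -0.53, while over all genes it was -0.01 with 50.7% lower. Limma called 0 genes in all (0%), with 2260, or 15.9%, at an unadjusted p under 0.05, among them Cct3 (unadjusted p = 0.0165) and Cct5 (unadjusted p = 0.0291), which makes 2 of 8 lower at that level against 8.84% of all genes. Tcp1, Cct3, Cct5 and Cct7, 4 of 8, were lower on every SNP array than on any WT array, as were 12.9% of all genes. In these bulk samples fewer cells of a type and less RNA per cell cannot be told apart. This comparison and that of KO share the WT arrays.

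**Figure D2:**
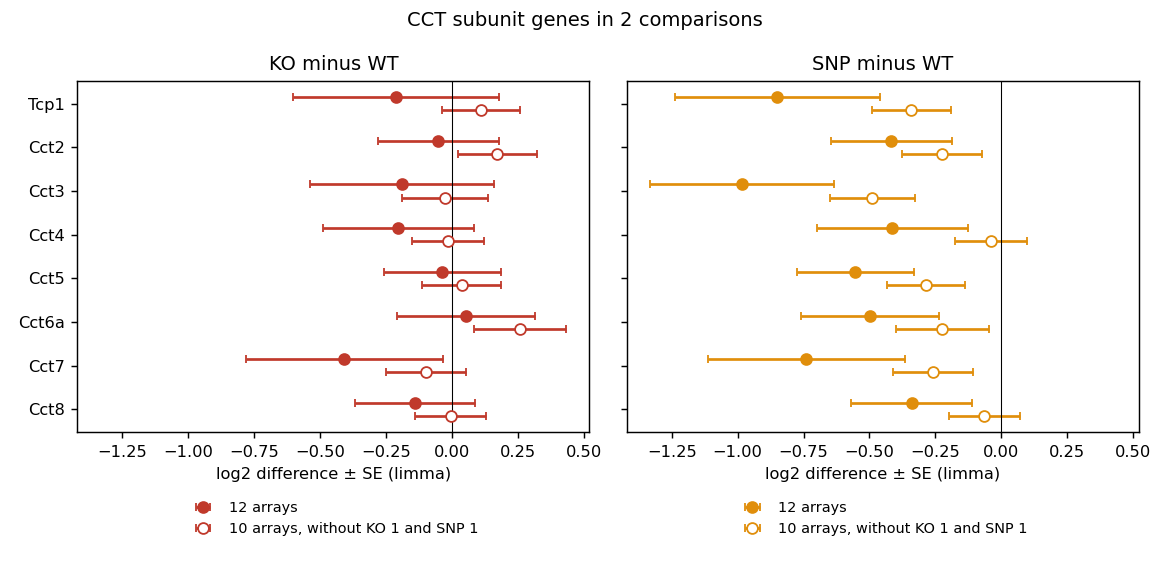
Points are the log2 differences of the 8 subunit genes with their standard errors from limma (horizontal axis), for KO minus WT on the left and SNP minus WT on the right. Filled points use 12 arrays and open points the 10 without KO 1 and SNP 1, where the SNP differences all stay under 0 and run from -0.49 to -0.04.

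SNP 1 carried much of the size of the SNP difference. On the 10 arrays 8 of 8 subunits were still lower in SNP, with a median of -0.24, between -0.49 ± 0.16 for Cct3 (limma adjusted p = 0.233) and -0.04 ± 0.14 for Cct4 (adjusted p = 0.905). There 4 of 8 lay apart from WT, against 17.6% of all genes. Markers of other cells were high on the same array. The mean of the 11 late neutrophil genes was 10.93 on SNP 1, 6.80 on SNP 2 and 7.42 on SNP 3, against 6.12 to 7.42 in WT, and 11 of 11 were higher in SNP, or 8 of 11 on the 10 arrays. The 7 erythroid genes averaged 9.77, 5.72 and 6.29 in SNP, against 5.55 to 6.52 in WT, and the 6 B-lineage genes 8.83, 5.76 and 6.13, against 5.14 to 5.62 in WT. The 6 T and NK genes averaged 8.33, 6.43 and 6.38 in SNP, against 6.21 to 6.81 in WT. On KO 1 the erythroid and B-lineage means, 7.53 and 6.42, were above the WT arrays. The late neutrophil and the T and NK means there, 6.74 and 6.24, lay within the range of WT. The late neutrophil means of KO 2 and KO 3, 5.90 and 5.34, were below it. Of the late neutrophil genes on KO 1, Mmp8 (10.09), Retnlg (8.94), S100a8 (8.86) and Cd177 (6.90) were above every WT array. Ltf (5.66), Camp (4.83), Ly6g (2.86) and Lcn2 (5.35) were below every WT array, and Ngp, Mmp9 and S100a9 lay within the WT range. Of the B-lineage genes on KO 1, Ebf1 (7.01), Igll1 (7.93) and Pax5 (5.51) were above every WT array. Cd79b (6.71) was below every WT array, and Vpreb1 (5.86) and Blnk (5.49) lay within the WT range. Of the markers of other cells 0 were under the 5th percentile on all arrays. The selection of probe sets nearly fixed that count, since each reached 6.14 or more on some array. It does not show that a marker was measured above that level on every array. The part of these markers in the lower subunit values was not tested.

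One Cct6a probe set, 10526081, set the wtKI arrays apart. It had 8.07, 8.29 and 7.18 in wtKI and 11.56, 11.52 and 11.42 in WT, a difference of -3.65. It had 11.08, 11.24 and 11.32 in KO and 10.34, 11.31 and 11.03 in SNP, so the variant knock-in was 3.05 above the knock-in of the common form. The highest wtKI array was 2.05 below the lowest of the other 9. Of all probe sets, 0.24% had every wtKI array below every other array, and 3 of 98975 (0.00303%) had them at least 2 below. These values chose the members and are a description. The probe set was still measured in wtKI, at percentiles 62.3, 65.9 and 43 of those arrays, against 94.7 to 99.6 on the other 9. In the comparisons without wtKI it did not pass: it moved -0.25 from the rest of its gene in KO against WT and 0.06 in SNP against WT (limma's probe set test, adjusted p = 1 for both). The choice set wtKI against the other 9 arrays, which favours a probe set that is alike in KO, SNP and WT. That it did not pass is therefore no independent result.

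The other 12 probe sets of Cct6a did not share a step of this size. The stepping probe set lay -0.75, -0.77 and -1.40 from their mean on wtKI 1, wtKI 2 and wtKI 3, and 1.79 to 2.42 above it on the 9 other arrays. The nearest to it was 10526079, with 6.86, 8.34 and 7.29 in wtKI and 9.45, 9.38 and 9.29 in WT, a difference of -1.87. Its KO values of 8.71, 9.58 and 9.25 overlapped those of WT, and its SNP values of 8.002, 8.43 and 8.62 overlapped those of wtKI. Probe set 10526076 followed with 8.88, 8.78 and 8.53 in wtKI and 9.51, 9.36 and 9.82 in WT. In contrast, 10526082, the next number after the stepping one, had 11.13, 11.24 and 11.05 in wtKI and 11.27, 11.26 and 11.28 in WT. Of the 13 probe sets, 12 were lower in wtKI, with a median of -0.32, and 9 were lower on every wtKI array than on any WT array, where 52.5% of all probe sets were lower and 6.39% apart on that side. The gene value hid the step: it was -0.36 ± 0.26 from WT with 10526081 and -0.31 ± 0.29 without it, a setting chosen after seeing the data.

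**Figure D3:**
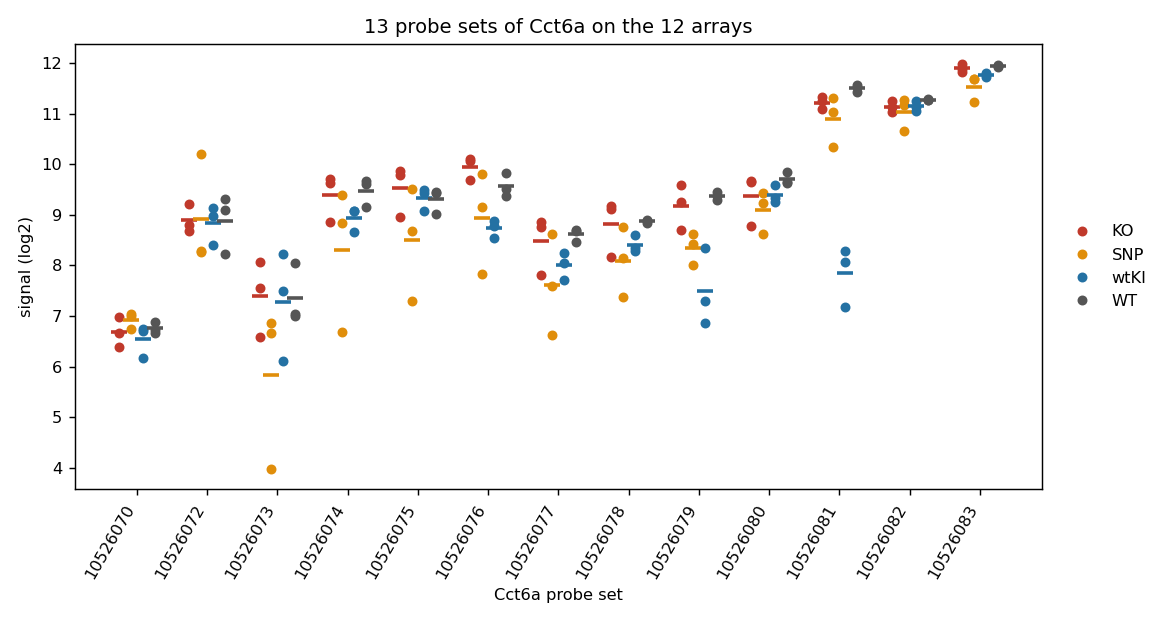
The log2 signal (vertical axis) of the 13 Cct6a probe sets in order of their number (horizontal axis) is shown on the 12 arrays, 1 point an array, with a bar at each group's mean. At 10526081 the 3 wtKI points lie between 7.18 and 8.29, and the other 9 points between 10.34 and 11.56.

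The Y-linked gene Eif2s3y, which marks the sex of the mice, was low on wtKI 2, wtKI 3 and WT 3 (1.71, 2.15 and 2.39) and 7.74 to 8.59 on the other 9. On wtKI 1, with Eif2s3y at 8.41, the Cct6a probe set was at 8.07, and on WT 3 it was at 11.42. The part of sex in the step was not tested. All KO and SNP arrays were among those with high Eif2s3y, so by this gene the sexes are unequal in every comparison given here. The part of sex in those comparisons was not tested either. The genes next to Cct6a in the RefSeq gene order were Mrps17, Nipsnap2 and Psph on one side and Sumf2, Chchd2 and Nupr1l on the other, with 26 probe sets in all. None of the 26 had every wtKI array below every other array, and the lowest, in Nipsnap2 (10526061), was -0.97 from the mean of the other 9. Chchd2 and Nupr1l were read by 1 probe set each. The gene values ran from -0.23 (Chchd2) to 0.63 (Nipsnap2) in wtKI against WT, and none of the 6 genes passed in KO or SNP against WT. Cct6a is on the same chromosome as Gfi1, with 235 measured genes between them.

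Single probe sets of other genes followed the same pattern over the 12 arrays. The 5 with the highest Pearson correlation to 10526081, out of 98962 compared, were in Riok1 (10404648, r = 0.956), Hmgb1 (10535896, r = 0.953), Top2a (10390737, r = 0.945), Srrt (10534698, r = 0.926) and Rnf157 (10393273, r = 0.896). The Riok1 probe set, of a kinase of ribosome assembly, had 8.17, 8.80 and 8.69 in wtKI and 10.34, 10.56 and 10.46 in WT. That of Hmgb1, a chromatin protein, had 6.60, 7.51 and 6.87 in wtKI and 10.002, 9.59 and 9.05 in WT. That of Top2a, the topoisomerase of dividing cells, had 8.95, 8.86 and 8.70 in wtKI and 11.13, 11.03 and 10.64 in WT. In each of the 5 all wtKI arrays were below the other 9, while the gene value, made from between 8 (Hmgb1) and 37 (Top2a) probe sets, differed by -0.15 (Rnf157) to 0.07 (Srrt). They were picked for this likeness, which all arrays share, so no test is given.

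**Figure D4:**
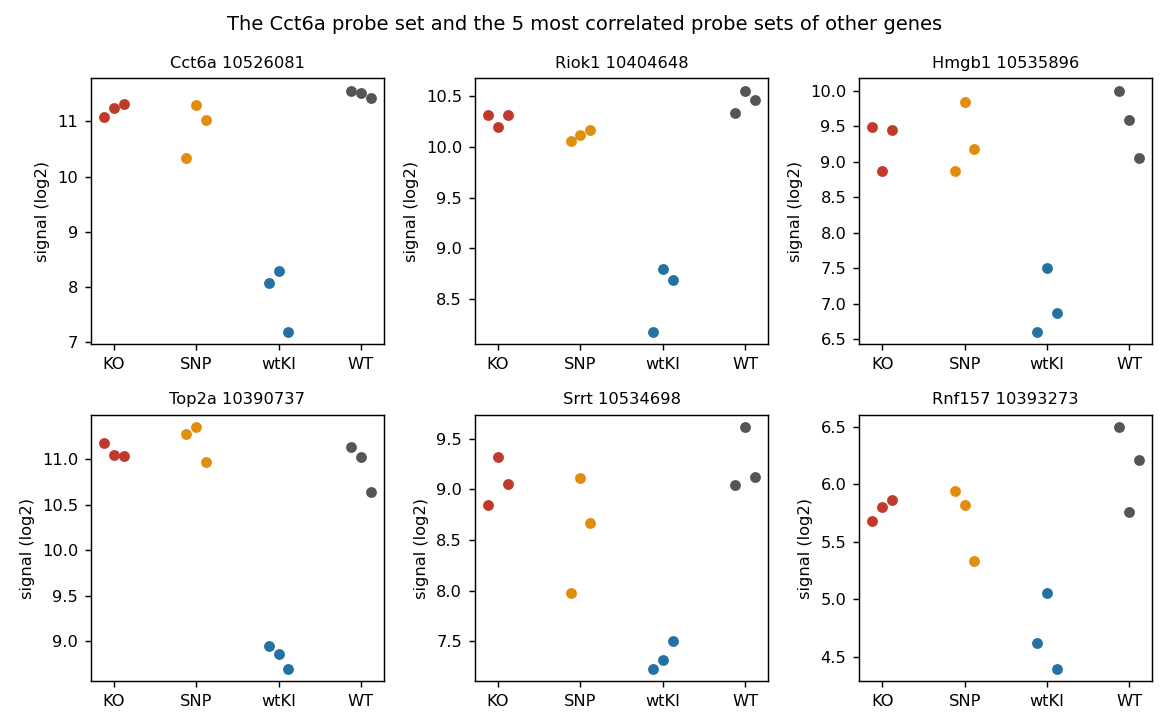
Each panel shows the log2 signal (vertical axis, with its own range) of 1 probe set on the 3 arrays of each group, KO, SNP, wtKI and WT, for Cct6a 10526081 and the 5 probe sets most correlated with it. In every panel the wtKI points are the lowest, 1.19 (Rnf157) to 3.36 (Cct6a) below the mean of the other 9.

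No other subunit had such a step, and Cct6a was the only 1 of the 8 with a probe set on which every wtKI array was below every other array (1 of 99 probe sets). In wtKI against WT, 79 of the 99 were lower, with a median of -0.12, and 25 lay apart on the lower side, where 6.39% of all probe sets did, with 1 on the higher side, against 5.47%. Nothing is read from that share, since the choice used these arrays. At the level of genes the 8 differences ran from -0.36 (Cct6a) to -0.04 (Cct2), with 4 of 8 apart on the lower side, against 6.83% of all genes. The probe sets of Cct2 scattered least within the gene in this comparison (SD 0.07) and those of Cct6a most (SD 1.02).

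In SNP against wtKI, the variant set against the common human form, the 8 gene values had a median of -0.38, between -0.81 ± 0.35 for Cct3 and -0.14 ± 0.26 for Cct6a. Cct3, 1 of 8, was lower on every SNP array than on any wtKI array, against 7.4% of all genes. On the 10 arrays 6 of 8 were lower (50.5% of all genes), with a median of -0.12. There 1 of 8 lay apart on the lower side, against 11.6% of all genes. Of the 99 probe sets 90 were lower in SNP (90.9%, against 57.9% of all probe sets), or 65 on the 10 arrays (65.7%, against 53.8%). On the 12 arrays 13 of the 90 lay apart from wtKI, against 7.98% of all probe sets. Only 1 lay apart there on the higher side, against 5.1%, and that was the stepping Cct6a probe set. On the 10 arrays 14 of 99 lay apart on the lower side, against 12% of all probe sets, and 6 on the higher, against 9.56%.

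Probe sets of a subunit mostly moved with their gene in the comparisons with WT. In SNP against WT 94 of 99 were lower (94.9%, against 57.8% of all probe sets), 39 of them apart from WT, against 12.2%, and 0 lay apart on the higher side, against 7.93%. Counts apart on the lower side were 12 of 13 for Tcp1, 8 of 11 for Cct5 and 6 of 13 for Cct6a. They were 5 of 17 for Cct2, 4 of 9 for Cct3, and 2 of 10 each for Cct4 and Cct7. For Cct8 the count apart was 0 of 16. Probe sets of 1 gene share its RNA and are not replicates. In KO against WT 76 of 99 were lower (76.8%, against 55.5%), with 3 apart on the lower side, where 6.28% of all probe sets were, and 2 on the higher side, against 5.4%. Without KO 1 and SNP 1, 87 of 99 were lower in SNP (87.9%, against 54.6%), with 39 apart on the lower side (17.3% of all probe sets) and 2 on the higher (13.2%). In KO the direction did not hold there: 42 of 99 were lower (42.4%, against 49.2%), with 3 apart on the lower side (10.9%) and 16 on the higher (11.9%). The test of each probe set against the rest of its gene called 0 of the 99 in KO (105 of 96101, or 0.109%, in all) and 0 of the 99 in SNP (425, or 0.442%). At an unadjusted p under 0.05 it named 1 of 99 in KO, against 4.42% of all, and 6 of 99 in SNP, against 7.24%.

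**Figure D5:**
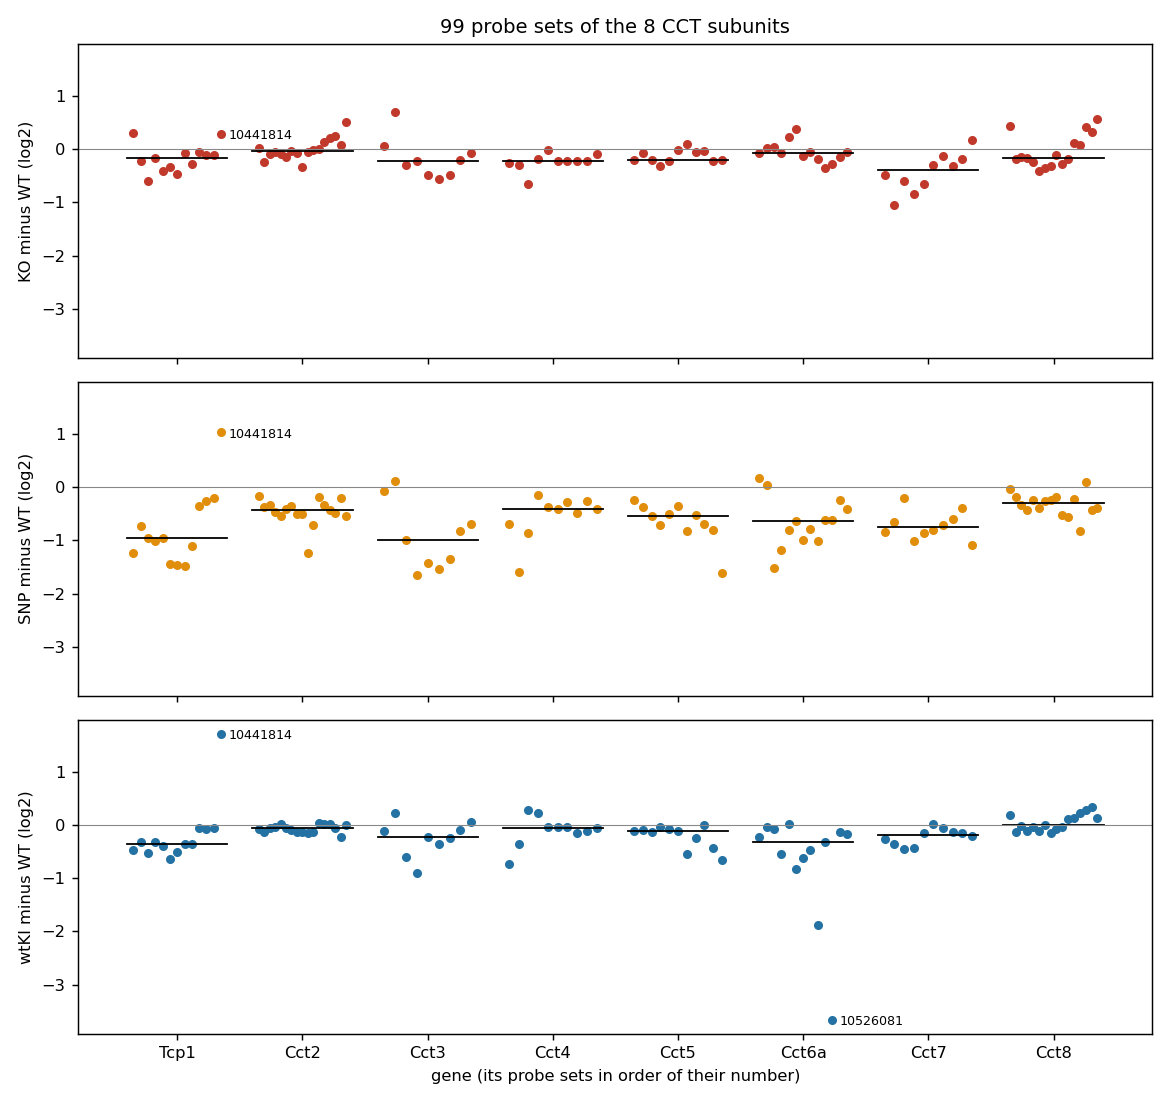
Each point is the log2 difference of 1 of the 99 subunit probe sets from WT (vertical axis), grouped by gene (horizontal axis) with a bar at the gene's median, in KO (top), SNP (middle) and wtKI (bottom). Cct6a 10526081 is the lowest point of the wtKI panel at -3.65, and Tcp1 10441814 the highest point of the SNP and wtKI panels at 1.03 and 1.71.

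The Tcp1 probe set 10441814 went against its gene. It had 2.33, 6.57 and 5.96 in KO, 3.57, 7.22 and 6.28 in SNP, 6.58, 6.97 and 5.57 in wtKI, and 4.61, 4.97 and 4.41 in WT, so that it was above every WT array except on KO 1 and SNP 1. It was under the 5th percentile of the array on 5 arrays, the 3 of WT with KO 1 and SNP 1, so the sizes of its differences are not exact. Against the rest of Tcp1 it was shifted by 1.96 in SNP (limma's probe set test, adjusted p = 0.145) and by 0.50 in KO (adjusted p = 1). On the 10 arrays it passed, with a shift of 2.53 in SNP (adjusted p = 8.13e-10) and 1.56 in KO (adjusted p = 0.00113). That test pools the spread over all probe sets of a gene, which are not replicates, so these p-values can be too small. Over all settings the adjusted p ran from 8.13e-10 to 0.5 in SNP and from 0.00113 to 1 in KO. On those arrays 0.84% of all probe sets were called in SNP, with 1 of 99 in the subunits, and 0.151% in KO, with 2 of 99. The other in KO was Cct2 10372617, shifted by 1.00 (adjusted p = 0.0094), with 5.81, 7.78 and 7.604 in KO and 6.37, 6.61 and 6.68 in WT.

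Each subunit was also set against the mean of the other 7 across the 12 arrays, as a description over arrays that share the low KO 1 and SNP 1. Pearson's r was lowest for Cct6a (0.843) and highest for Tcp1 (0.98). Of the other genes, 91.1% had a lower r with the mean of the 8 than Cct6a had with the other 7, and 99.9% a lower one than Tcp1. On the 10 arrays it ran from 0.672 for Cct4 to 0.99 for Cct5, and the r of Cct4 was above that of 88.2% of the other genes. The 5 other genes most like the mean of the 8, out of 14193, were the splicing factor Prpf31 (r = 0.987), the translation termination factor Gspt1 (r = 0.987), the proteasome subunit Psmd2 (r = 0.987), the vesicle coat protein Sec31a (r = 0.987) and the mitochondrial elongation factor Gfm1 (r = 0.986). Their r on the 10 arrays was 0.923, 0.893, 0.977, 0.917 and 0.904. Psmd2 had 8.72, 9.44 and 9.53 in KO, 7.44, 9.17 and 8.61 in SNP, 9.16, 9.29 and 9.002 in wtKI and 9.39, 9.45 and 9.31 in WT. Like the subunits, it was lowest on SNP 1.

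None of the measured members of the wider folding pathway passed in KO or SNP against WT, on 12 or on 10 arrays. Among prefoldin genes 6 of 8 were higher in KO, with a median of 0.12, and 6 of 8 lower in SNP, with a median of -0.53. The 10 arrays were run for these lists after seeing the data, and there 4 of 8 were higher in KO (median 0.03) and 5 of 8 lower in SNP (median -0.14). Pdrg1, a prefoldin-like protein, was at -1.08 ± 0.34 in SNP (limma adjusted p = 0.264), and Pfdn6 at -0.71 ± 0.21 (adjusted p = 0.258), and on the 10 arrays they were at -0.72 and -0.53. The phosducin-like partners were lower in 3 of 3 in both, with medians of -0.73 in KO and -0.95 in SNP, or -0.27 and -0.62 on the 10 arrays. Pdcl3 had the smallest adjusted p of them, at -0.95 ± 0.16 in SNP (adjusted p = 0.106). Actin, tubulin and other clients were lower in 11 of 18 in KO (median -0.04) and in 15 of 18 in SNP (median -0.26), and on the 10 arrays in 7 of 18 in KO (median 0.02) and 16 of 18 in SNP (median -0.33). The gamma-tubulin gene Tubg1 was at -0.82 ± 0.24 in SNP (adjusted p = 0.258), and Vhl, the von Hippel-Lindau tumour suppressor, at 0.84 ± 0.53 (adjusted p = 0.408). Without SNP 1 and KO 1 Vhl was at 0.0072, so its value in SNP was that of SNP 1.

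The tubulin cofactors, which take over tubulin after CCT, were higher in 3 of 5 in both, with medians of 0.05 in KO and 0.17 in SNP. Of the 5, on the 10 arrays, 5 were higher in KO and 3 in SNP, with medians of 0.15 and 0.13. Among them Tbcb was at 0.05 ± 0.18 in KO and -0.48 ± 0.18 in SNP. Cytosolic chaperones and heat shock factors were lower in 8 of 11 in both, with medians of -0.09 in KO and -0.27 in SNP, and on the 10 arrays in 5 of 11 in KO (median 0.0025) and 9 of 11 in SNP (median -0.12). The HSP110 gene Hsph1 was at -0.44 ± 0.37 in KO and -0.78 ± 0.37 in SNP, and the HSP70-HSP90 organiser Stip1 at -0.33 ± 0.30 in KO and -0.76 ± 0.30 in SNP. Hsph1 on the 10 arrays was at -0.24 in KO and -0.51 in SNP, and Stip1 at -0.11 in KO and -0.45 in SNP. The relatives of CCT, of which 4 of 7 were measured, gave a median of 0.05 in KO and -0.12 in SNP, or -0.0096 and 0.13 on the 10 arrays. Among them the mitochondrial chaperonin Hspd1 was at 0.03 ± 0.17 in KO and -0.38 ± 0.17 in SNP (adjusted p = 0.312), or -0.21 on the 10 arrays, and its lid Hspe1 at 0.06 ± 0.18 in KO and 0.16 ± 0.18 in SNP, or 0.29 on the 10 arrays.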

How the data were processed

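Sorted GMPs of 4 genotypes gave RNA for 12 Affymetrix Mouse Gene 1.0 ST arrays, 3 a genotype, after column purification and NuGEN amplification, per the labels' protocols. The authors deposited log2 signals, made by RMA according to the submitters' processing notes. The sources used here do not give the RMA version, the genome build or the way the 105661 probe sets were selected. Every probe set reached 6.14 or more on some array, so genes low everywhere are missing. The platform annotation gives 98975 probe sets 1 symbol, 1703 several and 4983 none, and only the first were named. Current symbols replaced 1752 older ones. Values near the bottom of an array carry no exact size.

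Gene values were made by median polish of a gene's probe sets and compared on all 12 arrays by lmFit and eBayes of limma 3.58.1 (R 4.3.3), adjusted over 14201 genes by Benjamini-Hochberg at a threshold of 0.05. A gene had a median of 5 probe sets, and 2874 genes had 1. The probe set test was limma's diffSplice over 96101 probe sets. It pools the spread over the probe sets of a gene as if they were replicates, so its p-values can be too small. Both were tested on simulated data. Groups lay apart where no array of one reached the range of the other. No block was used, because the labels do not say that the replicate numbers pair arrays. Same-numbered arrays of KO and WT, and of SNP and WT, did not deviate together (r between -0.04 and 0.05). For KO and SNP, which were not compared, r was 0.35, 0.21 and 0.14, and for SNP and wtKI 0.02, 0.11 and 0.05. Any 2 arrays had at most 0.0511% of values in common. Members and gene lists were chosen with earlier results of these data known. Named were the 8 subunits, the members of each pathway list that passed or else up to 2 with the largest difference, the 5 genes most like the mean of the 8, the 5 probe sets most like the stepping Cct6a one, 3 measured neighbours on each side of Cct6a, and Gfi1. Cct2 10372617, Tcp1 10441814, Psmd2's values and the Cct6a probe sets shown were chosen after their values were seen, as were Hspd1 and Hspe1. The number of arrays limits the precision.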

Additional observations from a re-analysis of the deposited data

How the results depend on the processing

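Over 322 alternatives of the 8 subunits in KO and SNP against WT, 305 kept direction and side of the threshold, 17 reversed and 0 passed. All 17 were in KO, and no SNP difference reversed. Several settings cannot change a difference: fitting only both groups, the replicate block, and leaving out an array of a group not compared. The 10 arrays repeat the difference of leaving out KO 1 or SNP 1 alone. In the main setting the smallest adjusted p was 0.27 (limma, Cct3 in SNP), far from the threshold. So 305 says little of how stable the values are. In KO, Tcp1 turned to 0.090 with array weights and 0.11 without both KO 1 and SNP 1 (10 arrays); Cct2 to 0.014 with median centring, 0.15 with array weights, 0.17 on the 10 arrays, 0.0034 with the mean of probe sets and 0.13 with the highest probe set; Cct5 to 0.011, 0.019 and 0.037 with centring, weights and the 10 arrays; and Cct6a to -0.052 with the mean and -0.042 with the highest probe set. With 1 array left out, Tcp1 ran from -0.39 to 0.11, Cct2 from -0.17 to 0.17, Cct5 from -0.077 to 0.037, Cct6a from -0.074 to 0.26 and the shift of Tcp1 10441814 from -0.22 (without KO 2) to 1.56 (without KO 1). The count of genes called in KO against WT, 0 in the main setting, was 1 with only both groups fitted, 1 with quantile normalization, 3 with the mean of probe sets, 4 on the 10 arrays, 495 with array weights, and 0 to 5 with 1 array left out (5 without SNP 1). In SNP against WT it was 0, 1 without the dimmest 30% of genes, 4 with array weights and 0 to 2 with 1 array left out. The probe set test called 105 in KO, 10 without the dimmest, 535 with weights and 60 to 366 with 1 array left out (without KO 1 and KO 3 at the ends). In SNP it called 425, then 176, 1043, 807 on the 10 arrays, and 193 to 898 (without WT 1 and KO 1 at the ends). The cause of these moves was not tested. With replicate number as a block, which the labels do not say pairs arrays, 0 genes were called in both comparisons, and the probe set test called 105 in KO and 470 in SNP. Leaving out SNP 1 moved the Cct3 difference in SNP to -0.49 and leaving out SNP 2 to -1.34.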
